A study of Daphnia magna with 84 samples.

Results

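The 24 RNA sequencing libraries of whole Daphnia magna at the 2 highest coal ash concentrations, 4 and 1 nM Hg/L, were compared at days 6, 10, 17 and 24 without using the animals at concentration 0. They were chosen by the concentration on each label and are 24 of the 84 libraries of the series: each concentration has 12 libraries, from 3 animals on each of the 4 days. Daphnia magna, a water flea, is a small freshwater crustacean that filters algae from the water and is widely used in toxicity testing. Per the labels' protocols, C. reinhardtii, a green alga, was held in the coal ash mixture for a short time and then fed daily to the animals, so both groups were exposed through the diet. The mixture is named by its mercury content, but it also contains the other constituents of coal ash. Both groups received coal ash, and the comparison therefore measures the difference between the 2 doses and not the effect of coal ash against none. Each library came from 1 animal, which per the labels was set aside for sequencing and not measured. The clone, the sex and the age at the start of exposure are not given in the labels, and p-values measure the spread between single animals.

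Coal ash is the residue of burned coal and carries mercury, selenium, arsenic and other metals and metalloids. In animals, such elements are known to raise metal-binding proteins, antioxidant enzymes and heat shock proteins, and in Daphnia the haemoglobin and yolk protein genes are known to follow oxygen supply and the reproductive cycle. The IDs of the 27350 gene models come without gene names in the deposited table, and 0 matched the reference gene table, so models are given here by ID and position and none was assigned a function. For the same reason the labelled tissue, the whole organism, could not be checked against markers. Positions are on the scaffolds and contigs of the deposited table, and the genome build is not given in the sources used here. In whole animals, fewer cells of a type and less RNA per cell cannot be told apart.

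The libraries held 13199333 to 27952023 counts, with a median of 17119565. Of these, 86.3% to 97.8% fell on the 5 most abundant models, which left 465099 to 2035564 counts per library, with a median of 1403724, for all other models. The spread of this usable depth was widest at day 6. There, 4 nM Hg/L replicates 1 and 2 held 760586 and 465099 counts outside the 5 models and replicate 3 held 1940755, while the 1 nM Hg/L animals held 2035564, 1992461 and 1109336. At day 17 the usable depth was 1008580 ± 163464 (SD, n = 3) at 4 nM Hg/L and 1562250 ± 311760 (SD, n = 3) at 1 nM Hg/L. The 4 nM Hg/L replicates 1 and 2 and 1 nM Hg/L replicate 3 of day 6 also had the lowest scaling factors, all below 0.35. The calls of day 6, and those of the test for a dose difference that depends on day, are given with and without these libraries. Models named as not called are given only with them. Over all days the difference in depth outside the 5 models, 1289060 ± 536441 at 4 nM Hg/L against 1577720 ± 322052 at 1 nM Hg/L (SD, n = 12), did not pass an exact two-sided permutation test within days (p = 0.123, adjusted over 8 measures 0.253).

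The first question was whether any gene model differed between the 2 doses on average over the 4 days. None of the 11068 models tested did by edgeR's quasi-likelihood test with day as a block, so 0% were called at a Benjamini-Hochberg adjusted p below 0.05, and the smallest adjusted p was 0.15. Without adjustment, 1173 models (10.6%) had a p below 0.05, of which 588 were higher and 585 lower at 4 nM Hg/L. DESeq2 called 4 models and limma-voom called 3. The older edgeR fit called 1, APZ42_030759, which is described with day 6 below; it was chosen after its values were seen. Leaving out 1 nM Hg/L day 17 replicate 2, or 4 nM Hg/L day 17 replicate 1, gave 1 call, and leaving out any other single library gave 0.

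The model with the smallest p among those lower at 4 nM Hg/L on every day, and with a mean of at least 5 counts-per-million (CPM), was APZ42_022374 (scaffold01361, 430915 to 439517, 3 exons). At day 10 its CPM was 86.3, 45.2 and 68.3 in the 1 nM Hg/L animals and 25.96, 22.7 and 20.2 in the 4 nM Hg/L animals. At day 17 it was 24.0, 44.5 and 33.0 against 18.8, 20.8 and 18.1. The groups did not overlap on these 2 days. At day 6 they did, with 27.3, 26.3 and 14.4 CPM at 1 nM Hg/L and 20.4, 13.6 and 22.5 at 4 nM Hg/L, and so they did at day 24, with 29.0, 37.7 and 14.97 against 16.1, 10.3 and 18.6. The fitted log2 change averaged over days was -0.87 (SE 0.19, 95% interval -1.26 to -0.48), with an edgeR adjusted p of 0.293. DESeq2 called this model (adjusted p = 0.0165), and the other 17 alternatives run did not.

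A second model lower at 4 nM Hg/L on every day was APZ42_007357, a short single-exon model of contig44959. The groups stood apart at day 10, with 93.1, 28.3 and 85.3 CPM at 1 nM Hg/L and 23.0, 17.7 and 18.5 at 4 nM Hg/L, and overlapped at days 6, 17 and 24. At day 17 one 4 nM Hg/L animal reached 70.9 CPM, close to the highest 1 nM Hg/L animal at 71.01. Its average log2 change was -1.16 (SE 0.29, edgeR adjusted p = 0.293).

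Models higher at 4 nM Hg/L on every day were held to the same mean of at least 5 CPM. Among them the smallest p belonged to APZ42_033651 (scaffold03258, 179017 to 180024, 4 exons). It held 12.7 to 196 CPM at 4 nM Hg/L, median 30.4, and 9.88 to 94.5 CPM at 1 nM Hg/L, median 18.3, over 12 animals each. The groups stood clear of each other at day 17, with 26.04, 39.0 and 18.5 CPM against 12.7, 11.8 and 14.0, and overlapped at the other 3 days. Its average log2 change was 0.91 (SE 0.23, edgeR adjusted p = 0.293). The second was APZ42_024534 (scaffold01663, 379764 to 380906, 2 exons), with 18.7, 30.4 and 19.4 CPM at 4 nM Hg/L and 11.8, 11.3 and 10.8 CPM at 1 nM Hg/L on day 17. Its groups overlapped at days 6, 10 and 24, and its average log2 change was 0.66 (SE 0.17, edgeR adjusted p = 0.293). None of these 4 models passed the test.

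**Figure D1:**
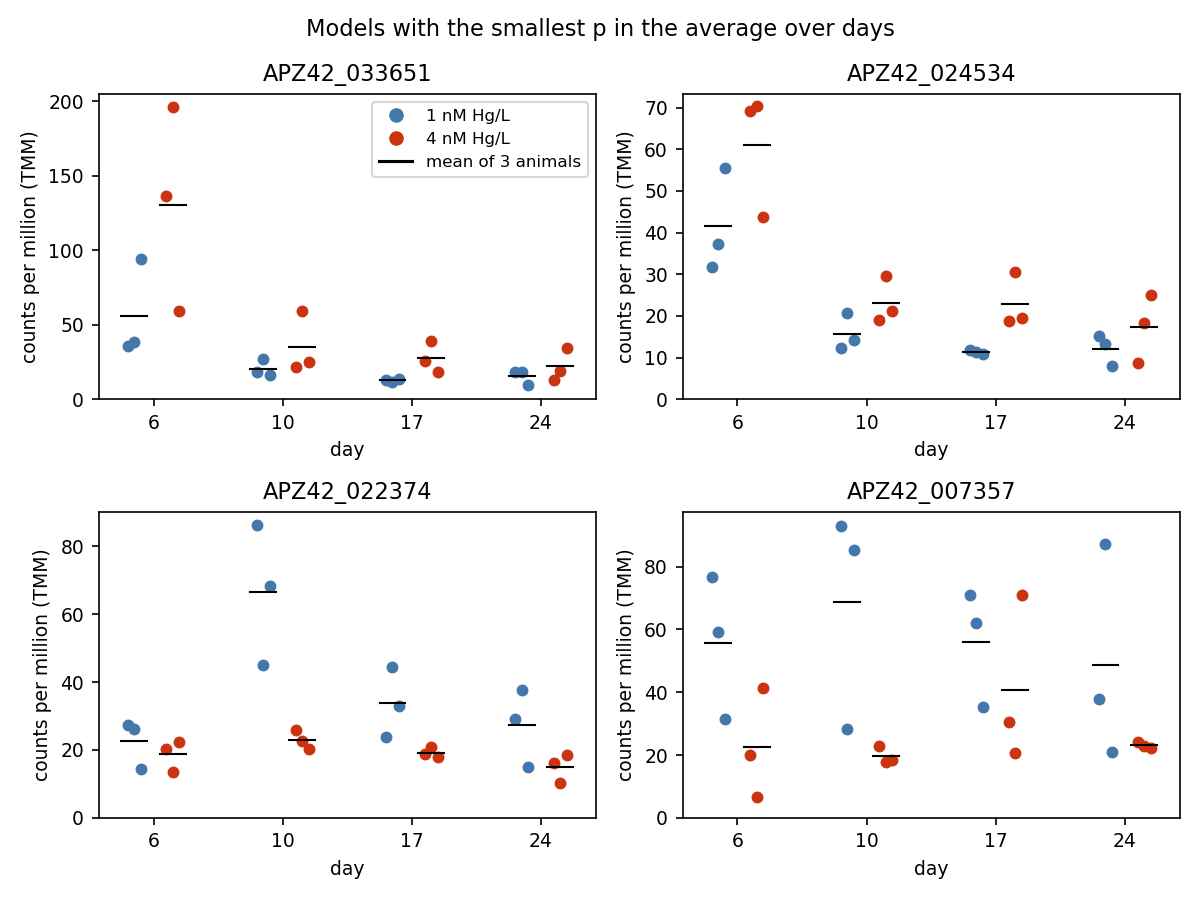
Counts-per-million in each animal (points) by day for 4 models, 2 higher and 2 lower at 4 nM Hg/L. In each direction they had the smallest p in the average over days. Only models with the same sign at all 4 days and a mean of at least 5 CPM were considered. Black lines are means of 3 animals and each vertical axis starts at 0. The lower models stand clearest apart at day 10, where APZ42_022374 lay at 20.2 to 25.96 CPM in the 4 nM Hg/L animals and at 45.2 to 86.3 CPM in the 1 nM Hg/L animals.

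The precision of the averaged comparison sets what could have been seen. The median absolute log2 change was 0.24 and the median standard error 0.29. For 6737 models (60.9%) the 95% interval of the averaged change lay wholly within 1 on the log2 scale in either direction. At single days, with 3 animals a group, this held for 13.6%, 14.8%, 15.7% and 21.04% of models at days 6, 10, 17 and 24. For most models a log2 change of 1 or more could therefore not be excluded at 1 day. This share also depends on the estimates. Their median absolute log2 change was 0.28 at day 24 and 0.48 at day 6, at median standard errors of 0.58 and 0.61.

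More models differed between days than between the doses. A difference between days was called for 2691 of the 11068 models (24.3%) in the same 24 libraries. In the median model, day took 24.5% of the sum of squares of log2 CPM with 3 degrees of freedom, concentration 3.14% with 1, and the remainder 69.9% with 19. The remainder holds the spread between animals and also any difference of the dose change between days. The difference between doses had the same sign at all 4 days for 1950 models, higher at 4 nM Hg/L for 734 and lower for 1216. No model had groups that did not overlap in one direction at all 4 days. At 3 or more days, 10 models (0.0904%) stood clear with the higher values at 4 nM Hg/L and 10 (0.0904%) with the lower. The median between-animal standard deviation of log2 CPM ran from 0.35 at 1 nM Hg/L on day 17 to 0.76 at 4 nM Hg/L on day 6.

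Day 6 was the 1 day at which more than 1 model was called. At 4 nM Hg/L, 20 models (0.181%) were higher and 1 (0.00904%) was lower than at 1 nM Hg/L by edgeR's test of that day's contrast, and 1089 models had an unadjusted p below 0.05. The lowest adjusted p belonged to APZ42_021732 (scaffold01253, 444999 to 446694, 4 exons). Its raw counts summed to 331 in the 3 animals at 4 nM Hg/L and to 6 in the 3 at 1 nM Hg/L, and its CPM was 22.4, 37.3 and 3.26 against 0.157, 0.0411 and 0.114. All 3 animals at the higher dose were above all 3 at the lower, and the fitted log2 change was 7.58 (SE 0.93, edgeR adjusted p = 0.000201). The next was APZ42_017126 (scaffold00687, 118704 to 121870, 8 exons), with 308, 500 and 265 counts against 23, 10 and 3. In CPM these were 54.7, 194 and 7.93 against 0.902, 0.411 and 0.342, a log2 change of 7.23 (SE 0.95, edgeR adjusted p = 0.0014).

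For all 20 models the 3 animals at 4 nM Hg/L lay above the 3 at 1 nM Hg/L in CPM, a direction that the calls themselves select. Before any scaling, the summed raw count was higher at 4 nM Hg/L for 20 of 20, and for 18 the 3 raw counts did not overlap. The calls were made from these same counts, so this is no further evidence for them. Together these models took 4220 counts in the 3 libraries at 4 nM Hg/L, which held 62577515 counts in all, and 418 counts in the 3 libraries at 1 nM Hg/L, which held 71250133. Of the 20, 16 had more than 3 counts at 1 nM Hg/L, with log2 changes of 1.82 to 8.48 and a median of 4.78. The other 4 had 0 to 2 counts there in all and no fold is given for them. The models lay on 18 different scaffolds, had 1 to 25 exons with a median of 9.5 (6 over all models tested), and a median length of 2493 bases (2261 over all).

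The 3 animals of day 6 at 4 nM Hg/L were not alike. For 18 of the 20 models the lowest of the 3 was replicate 3, the library with the full depth of 1940755 counts outside the 5 models, and the shallow replicates 1 and 2 were far higher. APZ42_034121, chosen after its values were seen, held 25.0 and 49.3 CPM in replicates 1 and 2 and 0.898 in replicate 3. Without replicates 1 and 2 and without 1 nM Hg/L replicate 3, 1 animal remained at 4 nM Hg/L against 2, the lone animal being assumed to vary like the other groups. Since the groups did not overlap in these animals, the direction of the 20 models was fixed by their choice. Their log2 changes then had a median of 3.04 and a lowest value of 1.04, that of APZ42_021732 being 4.92 and that of APZ42_017126 3.55. This median is over all 20 models, with those for which no fold is given. The median of 4.78 in the full fit is over 16. Of all models tested 0 were called, with 395 at an unadjusted p below 0.05, and the smallest adjusted p among the 20 was 0.571. A fit of only the 6 libraries of day 6 also called 0, with 590 at an unadjusted p below 0.05. With the share of counts outside the 5 models as a covariate, 5 were called, all of them among the 20. Thinning all libraries to 465099 counts left 6867 models to test and gave 25 calls, 11 of them shared. Several of the day 6 models had too few counts to be tested after thinning. Of those still tested, only APZ42_015338 and APZ42_027378 were not called (edgeR adjusted p = 0.102 and 0.187). The part of depth in these differences was otherwise not tested.

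**Figure D2:**
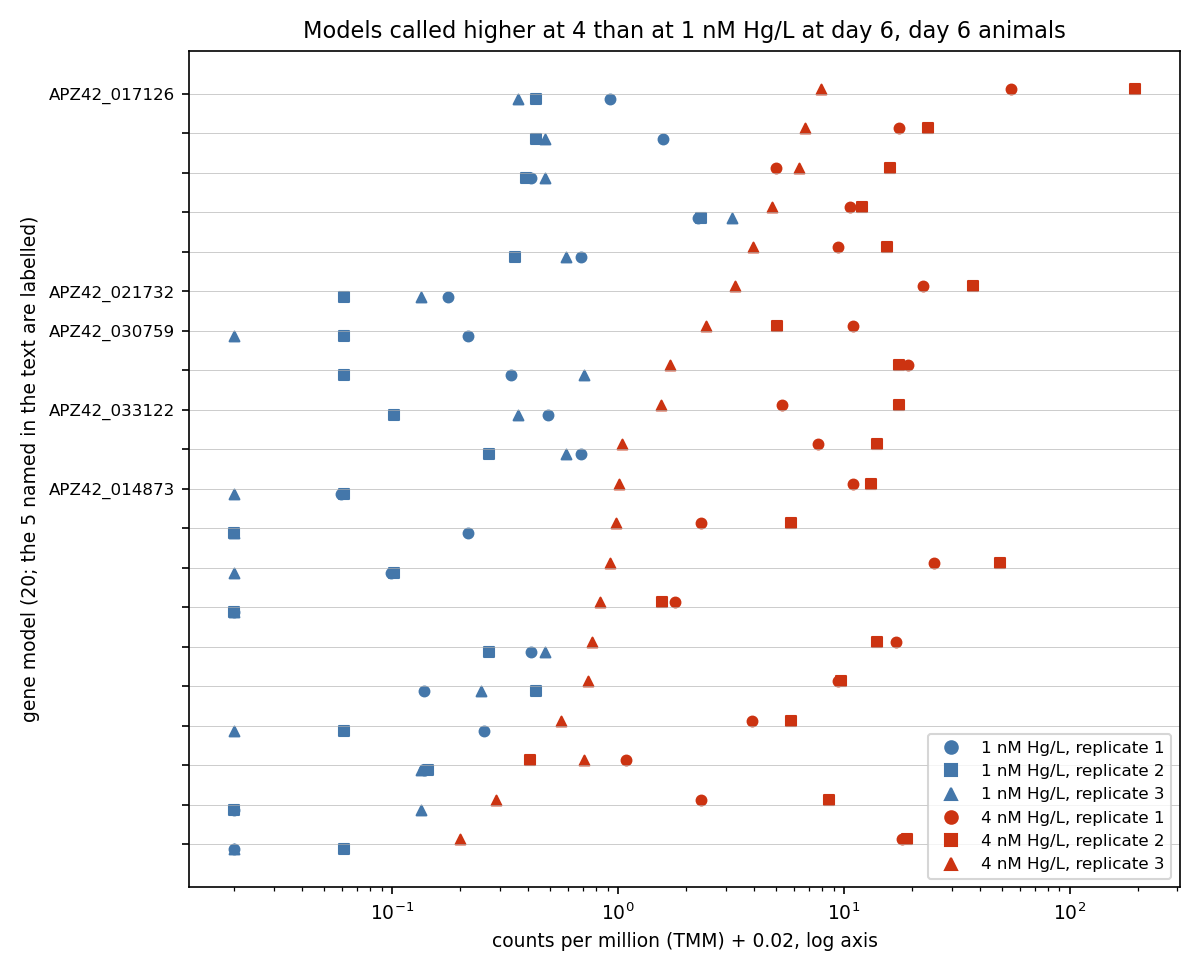
Level of each of the 20 models called higher at day 6 (rows) in the 6 animals of day 6, as counts-per-million plus 0.02 on a log axis; red symbols are 4 nM Hg/L, blue 1 nM Hg/L, and shape gives the replicate. Every red symbol lies right of the blue ones of its row, and the red triangle, replicate 3, is the lowest of its group in 18 rows.

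Single libraries moved the number of day 6 calls widely. Leaving out 4 nM Hg/L day 6 replicate 3 gave 585 calls, of which 230 were higher and 355 lower, and 21 were shared with the full fit. Leaving out 1 nM Hg/L day 6 replicate 2 gave 2, APZ42_021732 and APZ42_017126. The count was 10 without 1 nM Hg/L day 6 replicate 1 or replicate 3, 9 without 4 nM Hg/L replicate 1, 8 without replicate 2, and 34 without 1 nM Hg/L day 10 replicate 2. APZ42_021732 and APZ42_017126 were called in 24 of 24 of these fits. Other tools gave higher counts, 112 with DESeq2 (4 of them lower) and 544 with limma-voom (427 higher and 117 lower).

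The 1 model called lower at day 6 was APZ42_023305 (scaffold01468, 2389 to 4757), with 10, 8 and 3 counts at 1 nM Hg/L and 0, 0 and 1 at 4 nM Hg/L. With so few counts no fold is given. Its 0 counts at 4 nM Hg/L fell in the shallow replicates 1 and 2. Without the 3 day 6 libraries of low scaling factor, 1 count at 4 nM Hg/L stood against 10 and 8 at 1 nM Hg/L. The call was kept in 3 of 10 alternatives and in 19 of 24 fits without 1 library. Among more abundant models the smallest p of those lower at 4 nM Hg/L belonged to APZ42_028067 (scaffold02372, 206475 to 219990, 19 exons). It held 7.02, 7.81 and 7.86 CPM at 1 nM Hg/L and 4.62, 2.72 and 4.04 CPM at 4 nM Hg/L. Its log2 change was -0.98 (SE 0.22) and was not called (edgeR adjusted p = 0.0605). The second, APZ42_014229 (scaffold00389, 695706 to 711330), held 22.2, 16.2 and 15.5 CPM against 3.37, 1.94 and 8.14, and was not called either (log2 change -1.96, SE 0.47, edgeR adjusted p = 0.0742).

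At the later days none of the 20 models was called by edgeR. Their median fitted log2 change was -0.83, 0.46 and -0.27 at days 10, 17 and 24, and 4, 14 and 8 of them were higher at 4 nM Hg/L on the 3 later days. With a floor of 3 counts over a group, where models at or under it in both groups were set to 0 and models at 0 counts in 1 group to their bound, the medians were -0.83, 0.41 and -0.27. On these days 2, 2 and 3 of them had an unadjusted p below 0.05. APZ42_021732 held 0.199, 0.299 and 0.365 CPM at day 10 at 4 nM Hg/L against 0.498, 0.479 and 0.549 at 1 nM Hg/L, and at day 24 it held 0.196, 0.108 and 0 CPM against 0.237, 0.692 and 0.395. These levels were all below the lowest 4 nM Hg/L animal of day 6. As models chosen for being high in the 4 nM Hg/L animals of day 6, all 20 had their highest value of the 24 animals in that group, and for 11 the 3 highest were its 3 animals.

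APZ42_030759 (scaffold02861, 69606 to 70534, 2 exons) is the model among the 20 that some alternatives also called in the average over days. Its raw counts at day 6 were 62, 13 and 81 at 4 nM Hg/L and 5, 1 and 0 at 1 nM Hg/L. At day 24 they were 2, 3 and 1 against 0, 0 and 0, at day 10 they were 2, 0 and 0 against 0, 0 and 0, and at day 17 they were 0, 0 and 1 against 0, 1 and 0. Outside day 6 the model therefore lay at or near 0 in both groups. The few counts of day 24 were all at 4 nM Hg/L, in the same direction as at day 6. Most of its counts fell at day 6, and its averaged difference without that day is not given here. Its adjusted p in that average was 0.15 with the edgeR fit used here and 0.000591 with the older edgeR fit.

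**Figure D3:**
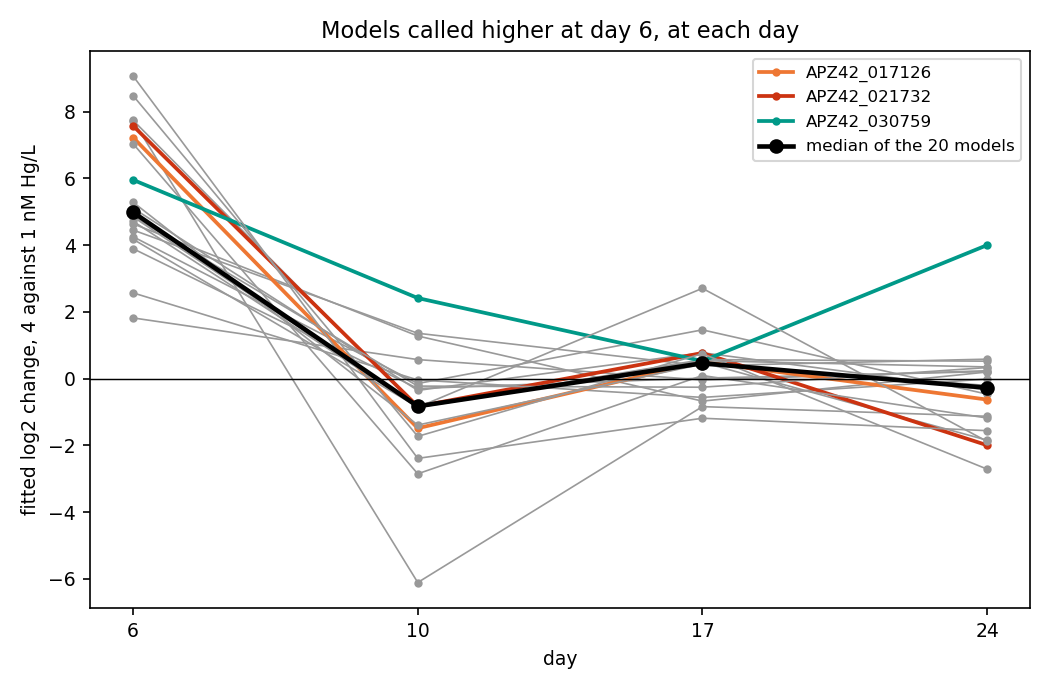
Fitted log2 change of 4 against 1 nM Hg/L at each day for the 20 models called higher at day 6 (thin lines, 3 of them coloured) and their median (black). The lines start above 0 at day 6, where the models were chosen, and the median lies at -0.83, 0.46 and -0.27 at days 10, 17 and 24.

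The day 6 levels of the 20 models were also read in the animals of the other concentrations, scaled over all 84 libraries. In each animal the median CPM over the 20 models was taken. At 4 nM Hg/L it was 10.1, 14.1 and 1.01, and 20, 19 and 10 of the models were above 1 CPM. At 1 nM Hg/L it was 0.222, 0.0848 and 0.168. At 0, 0.015, 0.06, 0.12 and 1 nM Hg/L it stayed between 0.0848 and 0.882 over 15 animals. One of the 3 animals at 0.25 nM Hg/L, replicate 1, reached 3.72 with 17 of the models above 1 CPM, while the other two lay at 0.247 and 0.139. That animal stood above replicate 3 of 4 nM Hg/L, and only 3 of the 20 models had all 3 animals at 4 nM Hg/L above all 18 other animals of day 6. At the later days the median was 0.202 to 0.452 at 4 nM Hg/L and 0.159 to 0.836 at 1 nM Hg/L over 9 animals each. Over all 63 animals of the later days, of every concentration, it ran from 0 to 1.71, with up to 13 of the models above 1 CPM. Of these, 5 animals of day 10 lay above replicate 3 of 4 nM Hg/L at day 6, with 1.71 at 0, 1.15 at 0.015, 1.47 at 0.06 and 1.23 and 1.02 at 0.25 nM Hg/L. These levels are a description, without a test across the doses.

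**Figure D4:**
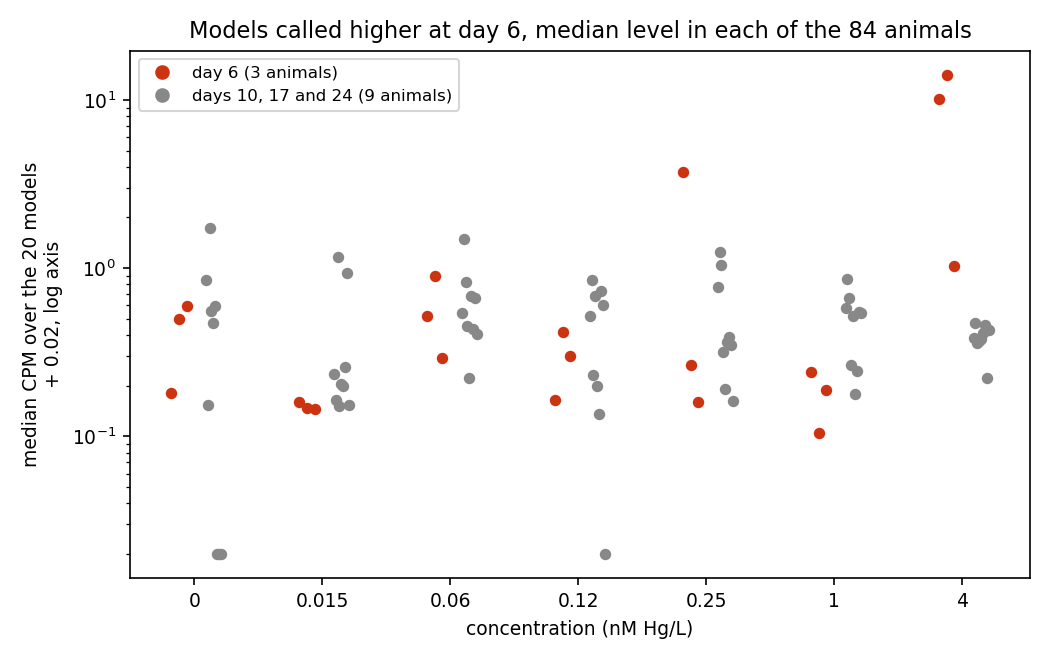
Median counts-per-million over the 20 day 6 models in each of the 84 animals, plus 0.02 on a log axis, by concentration; red points are day 6 (3 animals each) and grey points days 10, 17 and 24 (9 animals each). The 3 day 6 animals at 4 nM Hg/L lie at 10.1, 14.1 and 1.01, and 1 day 6 animal at 0.25 nM Hg/L lies at 3.72.

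The next question was whether the difference between the doses depended on the day. A joint test of the 3 concentration-by-day terms called 4 models (0.0361%), APZ42_021732, APZ42_014873, APZ42_017126 and APZ42_033122, with edgeR adjusted p of 0.00158, 0.00745, 0.0098 and 0.0121. All 4 are among the 20 models of day 6. APZ42_033122 (scaffold03147, 251180 to 253029, 7 exons) held 5.33, 17.5 and 1.53 CPM at 4 nM Hg/L on day 6 against 0.471, 0.0823 and 0.342. At day 10 the same model held 1.53, 2.19 and 1.10 CPM at 4 nM Hg/L against 2.99, 3.99 and 1.70 at 1 nM Hg/L. At day 17 it was again higher at 4 nM Hg/L, at 0.854, 2.73 and 0.894 CPM against 0.271, 0.332 and 0.0516, and was not called. At day 24 it held 0.0978, 0.0717 and 0.0719 CPM against 0.189, 0.437 and 0.307. For APZ42_014873 the counts at day 6 were 62, 34 and 33 against 1, 1 and 0, and at day 10 they were 0, 0 and 0 against 5, 19 and 3. DESeq2 called 67 models in this test. Without the 3 day 6 libraries of low scaling factor the test called 0, with 828 at an unadjusted p below 0.05, and without 1 nM Hg/L day 6 replicate 2 or replicate 3 it also called 0. It called 2 without 1 nM Hg/L day 6 replicate 1, 9 without 1 nM Hg/L day 17 replicate 3, and 37 without 4 nM Hg/L day 6 replicate 3.

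The remaining models that the naming rule gives for this test were not called by edgeR. APZ42_019722 (scaffold00944, 40559 to 42062, 6 exons; edgeR adjusted p = 0.251), which DESeq2 called (adjusted p = 0.012), was high in the 3 animals of 4 nM Hg/L at day 6. It held 35.9, 104 and 5.24 CPM at 4 nM Hg/L against 0.824, 0.0411 and 0.456, and at the later days no animal at 4 nM Hg/L exceeded 0.44 CPM. APZ42_002042 (contig10099; edgeR adjusted p = 0.281) was a model of day 6 in both groups, with 64.3, 44.6 and 32.4 CPM at 4 nM Hg/L and 51.7, 46.2 and 54.2 at 1 nM Hg/L. At day 17 it had dropped to 0.939, 1.68 and 1.00 CPM at 4 nM Hg/L and to 0.116, 0.0996 and 0.103 at 1 nM Hg/L, groups that did not overlap. APZ42_019810 (scaffold00944, 446804 to 466262, 21 exons; edgeR adjusted p = 0.284) was lower at 4 nM Hg/L on day 6, at 2.31, 3.49 and 3.53 CPM against 5.89, 5.26 and 7.98.

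At day 10 no model was called (0% of 11068), and the smallest edgeR adjusted p was 0.214. Of 1089 models at an unadjusted p below 0.05, 734 were lower and 355 higher at 4 nM Hg/L. DESeq2 called 169 models, all but 4 of them lower, and limma-voom called 59, 49 of them lower. Among models with at least 5 CPM on that day, the smallest p of those lower belonged to APZ42_014241 (scaffold00389, 655693 to 660309, 4 exons). It held 41.4, 0.359 and 13.2 CPM at 1 nM Hg/L and 0.794, 0.498 and 1.10 CPM at 4 nM Hg/L. Replicate 2 of 1 nM Hg/L thus lay below all 3 animals at 4 nM Hg/L and the groups overlapped (log2 change -4.50, SE 0.95, edgeR adjusted p = 0.214). DESeq2 called this model (adjusted p = 0.00196). APZ42_028737, a model of 46 exons (scaffold02452, 767268 to 791841), held 162 and 33.3 CPM in replicates 1 and 2 of 1 nM Hg/L, with replicate 3 close to replicate 1, against 20.5, 21.3 and 30.7 at 4 nM Hg/L. Here replicate 2 of 1 nM Hg/L was also far below its companions, though still above the 3 animals at 4 nM Hg/L (log2 change -2.22, SE 0.48, edgeR adjusted p = 0.214). It was called by DESeq2 (adjusted p = 0.00387) and by limma-voom (adjusted p = 0.0495).

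The 1 nM Hg/L animals of day 10 therefore fell apart in these models, and the count of calls turned on that animal. Leaving out 1 nM Hg/L day 10 replicate 2 gave 206 calls at day 10, 178 of them lower and 28 higher, while leaving out any other single library gave 0. The same split was seen in APZ42_034076 (scaffold03326, 310052 to 313185, 4 exons), a model that differed widely between animals of 1 group. It held 550, 2.27 and 348 CPM at 1 nM Hg/L on day 10 and 2.10, 1.99 and 19.2 CPM at 4 nM Hg/L. At day 17 it held 66.7, 90.3 and 91.4 against 114, 1.05 and 28.6, and at day 24 it held 120, 109.3 and 29.9 against 30.9, 4.19 and 69.2. Over the 24 animals its mean log2 CPM was 4.73 ± 3.75 in the 1 nM Hg/L animals against 2.71 ± 2.62 in the 4 nM Hg/L animals (SD, n = 12), a difference that did not pass the exact permutation test within days (p = 0.0726, adjusted 0.253).

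The models of at least 5 CPM that were higher at 4 nM Hg/L on day 10 with the smallest p showed small differences. APZ42_018232 (scaffold00763, 227055 to 232671, 10 exons) held 8.0, 9.26 and 5.06 CPM at 4 nM Hg/L against 3.63, 5.11 and 3.99, so that the groups overlapped slightly. Its log2 change was 0.81 (SE 0.26, edgeR adjusted p = 0.266). APZ42_023900 (scaffold01581, 933050 to 935506, 8 exons) held 11.8, 13.6 and 11.1 CPM against 5.48, 9.06 and 6.99, and the groups did not overlap. Its log2 change was 0.76 (SE 0.27, edgeR adjusted p = 0.322).

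At day 17 no model was called (0%), with 1015 at an unadjusted p below 0.05 and a smallest edgeR adjusted p of 0.0639. DESeq2 called 15 and limma-voom 6, all of them higher at 4 nM Hg/L. APZ42_008800, a short single-exon model of contig54599, held 8.54, 14.6 and 15.7 CPM at 4 nM Hg/L and 3.79, 4.68 and 4.64 CPM at 1 nM Hg/L. Its log2 change was 1.57 (SE 0.35), not called by edgeR (adjusted p = 0.316) and called by DESeq2 (adjusted p = 0.0319) and limma-voom (adjusted p = 0.0496). APZ42_030256 (scaffold02794, 25069 to 40445, 13 exons) held 7.77, 4.97 and 21.04 CPM against 2.63, 3.69 and 2.22. The groups of both models did not overlap. Of the lower models, APZ42_011836 (scaffold00027, 11039 to 17115, 2 exons) held 20.2, 11.8 and 9.10 CPM at 4 nM Hg/L and 32.6, 25.6 and 26.8 CPM at 1 nM Hg/L. APZ42_025114 (scaffold01801, 14672 to 16428, 2 exons) held 7.09, 2.52 and 0.737 CPM against 13.7, 15.2 and 13.3. Neither passed (log2 changes -1.05 and -2.03, edgeR adjusted p = 0.394 and 0.419). Leaving out 1 nM Hg/L day 10 replicate 2, 1 nM Hg/L day 24 replicate 2 or 3, or a first or second 4 nM Hg/L replicate of day 10 or 24 gave 1 call at day 17, APZ42_002042, which was higher at 4 nM Hg/L.

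At day 24 a single model was called (0.00904%), and 336 had an unadjusted p below 0.05, the fewest of the 4 days. This model, APZ42_011769 (scaffold00024, 3251791 to 3263401, 8 exons), had 36, 120 and 7 counts at 1 nM Hg/L and 1, 4 and 1 counts at 4 nM Hg/L. In CPM these were 1.70, 4.37 and 0.307 against 0.0489, 0.143 and 0.0719, and the groups did not overlap (log2 change -4.45, SE 0.73, edgeR adjusted p = 0.0481). At day 6 the same model held 3.91, 5.82 and 2.51 CPM at 4 nM Hg/L against 1.26, 1.15 and 2.62. The call was lost in 19 of the 24 fits that left out 1 library. It was kept in 5 fits, those lacking the third 1 nM Hg/L replicate of day 6, 17 or 24 or the first or second 4 nM Hg/L replicate of day 10. It was also lost with DESeq2's size factors in the edgeR fit and with limma-voom.

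Of the models with at least 5 CPM that were lower at 4 nM Hg/L on day 24, the smallest p belonged to APZ42_030594 (scaffold02850, 418954 to 419951, 2 exons). It held 8.95, 21.6 and 0.659 CPM at 1 nM Hg/L and 0.538, 0.179 and 0.0719 CPM at 4 nM Hg/L. Its log2 change of -5.25 (SE 1.17) was not called by edgeR (adjusted p = 0.566) and was called by DESeq2 (adjusted p = 0.00103). APZ42_027187 (scaffold02190, 727451 to 735610, 9 exons) held 14.8, 34.9 and 7.55 CPM against 8.37, 4.95 and 6.97, with overlap. Of the models higher at 4 nM Hg/L, APZ42_018342 (scaffold00781, 245788 to 249151, 6 exons) held 24.0, 76.3 and 68.9 CPM against 21.6, 16.5 and 21.3. APZ42_022276 (scaffold01361, 135443 to 137802, 8 exons) rested on 1 animal, with 0.0489, 30.9 and 0 CPM at 4 nM Hg/L against 0, 0.255 and 0, and without that animal its log2 change turned to -1.49. None of these 3 was called (edgeR adjusted p = 1 for each).

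The animals were also compared as wholes. With the mean of each day removed, the first 3 principal components of log2 CPM took 26.1%, 15.9% and 10.6% of the variance. Component 1 averaged -19.0 ± 35.7 in the 4 nM Hg/L animals against 19.0 ± 44.3 in the 1 nM Hg/L animals (SD, n = 12), and the exact permutation test within days gave p = 0.046, or 0.253 after adjustment over the 8 measures. The 4 nM Hg/L animals ran from -66.1 to 58.5 on this axis and the 1 nM Hg/L animals from -51.3 to 91.04, so that the groups overlapped through most of the range. APZ42_034076 followed this component with a correlation of 0.757 over the 24 animals, which share their libraries and depth with it. The model was itself among those in the components, and the sign of the component was set by it. It was not alone, since 485 models had a correlation above 0.7 with component 1 and 314 had one below -0.7. On component 2, 4 nM Hg/L day 6 replicate 2, the shallowest library, stood alone at 128. The nearest other animal of the same day had the same concentration for 15 of the 24. With 3 animals per group, fewer of the other animals of a day shared an animal's concentration than did not. This count was not tested. At day 24, 1 nM Hg/L replicate 3 and 4 nM Hg/L replicate 1 were each nearest to the other.

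**Figure D5:**
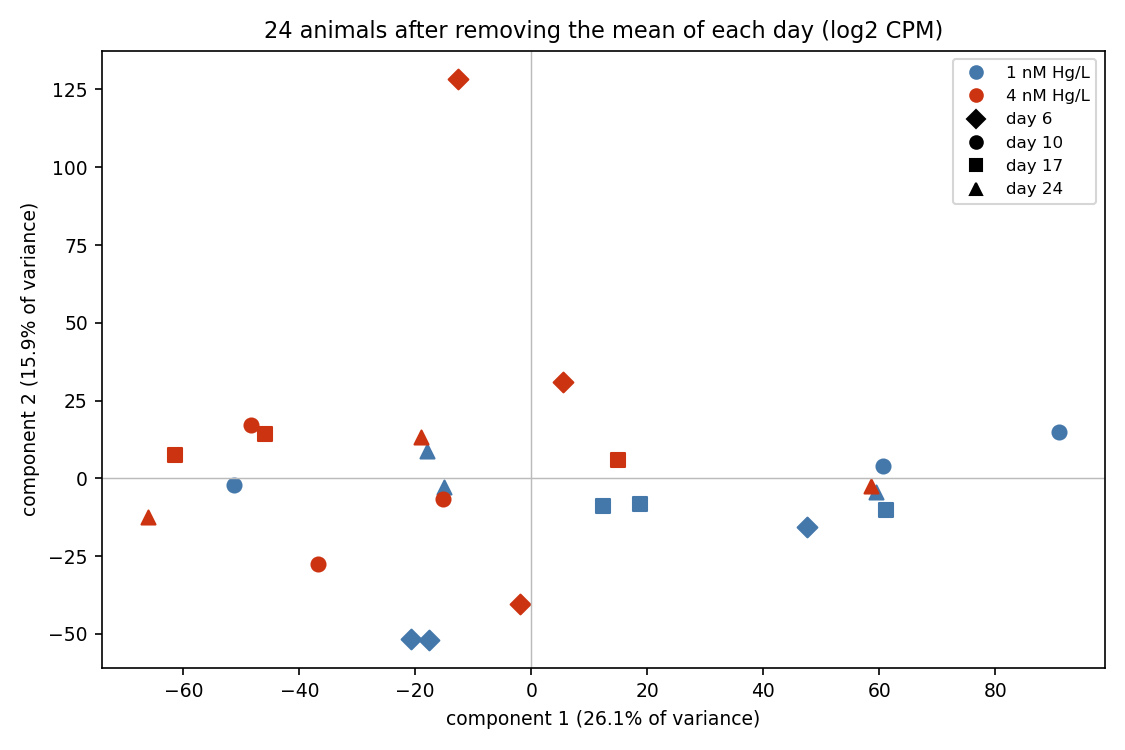
Scores of the 24 animals on the first 2 principal components of log2 counts-per-million after the mean of each day was removed; colour gives the concentration and shape the day. The doses overlap on component 1, with means of -19.0 (4 nM Hg/L) and 19.0 (1 nM Hg/L), and 1 day 6 animal at 4 nM Hg/L lies apart at 128 on component 2.

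Several classes of models were described by their median change beside that of all models tested, without a test. Models lower at day 17 than at day 6 in the 48 animals of the 4 lower coal ash concentrations, which share no library with this comparison, had a median log2 change of 0.37 at day 17 and 76.5% of 1215 were above 0. Over all models the values at day 17 were -0.02 and 48.7%. Models higher at day 24 than at day 6 in those animals had a median of -0.38 at day 10, with 29.7% of 1481 above 0, against 0.07 and 54.3% over all models. For both of these groups of models the direction was not the same at every day. Those lower at day 17 had a median of -0.21 at day 6, with 36.5% above 0, and those higher at day 24 one of 0.10 at day 24, with 61.4% above 0. The 73 tested of 76 models with 30 or more exons had a median of -0.19 at day 10, and the 176 tested models of scaffold02581 had -0.19, with 23.9% at an unadjusted p below 0.05 against 9.84% over all. As edgeR called no model at day 10 or day 17, none of these lists could hold one on those days. DESeq2 and limma-voom called the model of 46 exons at day 10. At day 6, edgeR called 1 of the 1215 models lower at day 17 and 2 of the 1481 higher at day 24. All were higher at 4 nM Hg/L, against 20 of 11068 over all models. Of 704 models with ENSRNA identifiers, which annotate noncoding RNAs, 1 had enough counts to be tested.

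The 5 most abundant models took up most of every library but were not called on average over days. The largest averaged change among them was in APZ42_004030, with a log2 change of 1.02 (SE 0.43, edgeR adjusted p = 0.404). At day 6 this model took 6342039, 6924897 and 3599937 counts of the 4 nM Hg/L libraries and 2949664, 3366777 and 5891779 counts of the 1 nM Hg/L libraries. The 2 shallow 4 nM Hg/L libraries and 1 nM Hg/L replicate 3 held the 3 highest values.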

How the data were processed

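The authors deposited raw read counts, as whole numbers for each gene model in each library, with the exon positions of each model per the file headers. STAR 2.7.5b was the aligner, per the submitters' processing notes. No counting tool, strand setting or genome build is given in the labels or files, so overlapping or near-identical models may share counts. Per the labels' protocols, each animal's RNA was extracted alone and depleted of ribosomal RNA, and the library kit marks strand. Groups follow the labelled concentration and day, and replicates were numbered in accession order, which pairs no animals.

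From the 24 libraries, models were kept by edgeR's filterByExpr (minimum count 10, 8 groups), which left 11068 of 27350, and scaled by TMM factors of 0.124 to 2.21. The printed CPM are counts-per-million of these scaled totals, so that those of the most abundant models are not bounded by the nominal total. Log2 CPM used a prior count of 2. The averaged comparison was fitted with edgeR 4.0.16 in R 4.3.3 (glmQLFit, robust, glmQLFTest) with day as a block and 19 residual degrees of freedom. Contrasts at each day and the joint test of their difference came from 1 mean per group with 16. The Benjamini-Hochberg adjustment ran over every model tested in a comparison, and an adjusted p below 0.05 is named a call. The fit of the averaged comparison was also run on simulated data, with an outcome that is not given here. The fits of single days and the joint test were not. The 8 measures per library were tested by exact permutation within days over 160000 arrangements. Alternatives used limma 3.58.1, DESeq2 1.42.0 and sva 3.50.0 and, among others, left out each library in turn.

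For each contrast, up to 2 models in each direction are named, those with the smallest p among called models with at least 5 CPM, then among the rest, named as not called; for the joint test up to 4. In the average over days, the sign also had to be the same at all 4 days. The comparison, the lists and the alternatives were chosen with earlier results of these data known. Counts of PCR-amplified reads are not independent molecules.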

Additional observations from a re-analysis of the deposited data

Results flagged for a closer look

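The change between the doses differed between days, by the joint test of the concentration-by-day terms in edgeR, for 4 models. Their adjusted p was 0.00158 for APZ42_021732, 0.00745 for APZ42_014873, 0.0098 for APZ42_017126 and 0.0121 for APZ42_033122. All 4 were higher at 4 nM Hg/L at day 6, in 3 of 3 animals. Groups of 3 animals are too small for a search for single outlying animals.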

How the results depend on the processing

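In the average over days, 1 model was called without the filter on low counts, with the older edgeR fit, with all 84 libraries fitted, with 1 mean per group and without day 17, 4 were called with DESeq2 and 3 with limma-voom, and 0 in the other 11 alternatives. Fits without 1 library gave 0 to 1. At day 6 (21 calls), DESeq2's size factors gave 41, DESeq2 112, limma-voom 544, removal of the 5 most abundant models 42 and all 84 libraries 80. The count fell to 8 without the library under 500000 counts outside the 5 models, to 5 with the share of those counts as a covariate, and to 0 with only the 6 libraries of the day or without the 3 day 6 libraries of low scaling factor, an alternative chosen after seeing the data, as was thinning. Fits without 1 library gave 2 to 585. At day 10, DESeq2 called 169, limma-voom 59 and the fit of all 84 libraries 16, and fits without 1 library gave 0 to 206. At day 17, 1 was called without the filter, 15 with DESeq2 and 6 with limma-voom, and 0 to 1 without 1 library. The 1 call of day 24 was kept without the filter, became 4 with DESeq2 and 0 in the other 10 alternatives, and 0 to 1 without 1 library. The joint test between days (4 calls) gave 10 without the filter, 67 with DESeq2, 2 with the covariate and with all 84 libraries, 0 without the 3 libraries, 1 after thinning, and 0 to 37 without 1 library. Differences between days (2691) fell to 1731 with the covariate and 1590 without the 3 libraries, and were otherwise within 1.5 times. The causes were not tested; the fits with fewer libraries also have less power by construction.

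Over 582 alternative values of the models named or called, 464 kept their side of the threshold, 18 passed it newly and 100 lost it. This pool mixes called results with models named as not called, for which staying uncalled counts as kept. All 100 losses fell on called results. Called models of day 6 stayed called in 3 of 10 (APZ42_023305) to 10 of 12 alternatives (APZ42_021732), and the day 24 call in 2 of 11. Without 1 library, the day 24 change of APZ42_022276 (6.74) ran from -1.49 to 10.6, and the difference in total counts, 4 minus 1 nM Hg/L (-495200), from -777400 to 30070. No per-library measure passed its adjusted test under any of them. No paired analysis was possible because the replicate numbers were given in accession order and pair no animals. At single days the median standard error was 0.58 to 0.61 on the log2 scale, which limits what 3 animals a group can show.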
